A study of Mus with 6 samples.

Results

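The 10 genes described here encode enzymes that break down the branched-chain amino acids leucine, isoleucine and valine: Bcat1, Bcat2, Bckdha, Bckdhb, Dbt, Ivd, Mccc1, Mccc2, Auh and Hibadh. They were chosen by symbol, and all 10 were found among the 18887 genes of the deposited table. Breakdown starts with a reversible transamination, in which the amino group is passed on to make glutamate. The remaining keto acid is then committed by a mitochondrial dehydrogenase complex, and separate routes for each amino acid end in acetyl-CoA, acetoacetate or, by way of propionyl-CoA, succinyl-CoA. In brain the first step is known as a source of glutamate nitrogen, and work on rodents has placed its mitochondrial enzyme mainly in astrocytes and its cytosolic enzyme in neurons.

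The RNA came from whole mouse brain by RiboTag profiling, a method that tags a ribosomal protein in one type of cell and pulls down the ribosomes of those cells with their mRNA. The cell type is labelled microglia in all 6 samples. There were 2 control libraries (titled MG_IP, genotype Ctr) and 4 knockout libraries (titled IRKO_IP, genotype KO), and IRKO is taken to mean insulin receptor knockout, since the title speaks of lost insulin signalling in microglia. Not given in the sources used here were age, sex, the Cre driver, the targeted allele and any pooling of animals. Nothing says that replicates are separate animals, and p-values therefore reflect only the variation among these libraries, which may be technical. The design compares ribosome-bound transcripts of the IRKO libraries with those of the controls.

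The libraries held 13858978 to 19010680 reads, and 14698 genes had a normalized count of at least 10 in at least 2 libraries and were tested. A normalized count is the number of reads of a gene divided by 1 factor per library. Insr, the insulin receptor, stood at 565 and 532 normalized counts in control replicates 1 and 2 and at 357, 366, 290 and 340 in IRKO replicates 1 to 4, a log2 change of −0.70 ± 0.135 (SE, limma adjusted p = 0.00211). With every library scaled to the same total the change was −0.28 and no longer passed (limma adjusted p = 0.0841, range over all alternatives 5.6e-09 to 0.0841). Markers of other cells moved with the groups. All 20 astrocyte markers fell, by log2 changes of −5.21 to −2.53 (median −4.11), and their summed level was 805702 and 629692 normalized counts in the controls against 32413 to 43708 in IRKO. Of 25 homeostatic microglia markers 24 rose, with a median of 1.64 over the list and sums of 128474 and 101972 against 266263 to 375620. Of 16 neuron markers 13 rose (median 0.91, sums of 43176 and 53541 against 78114 to 100613). All 5 red blood cell genes fell, from sums of 75516 and 161622 to between 243 and 2132, and 10 of 11 tested liver genes fell. The liver sums overlapped, at 4435 and 79121 in control replicates 1 and 2 and 699 to 12046 in IRKO, and control replicate 2 stood apart. Of 7 choroid plexus and ependyma markers 5 fell (median −2.22), with overlapping sums of 4698 and 68787 against 910 to 12374. Of 11 oligodendrocyte markers 7 rose and 1 fell (median 0.86, sums of 35924 and 27524 against 37092 to 68267), and of 6 oligodendrocyte precursor markers 3 rose (median 0.74, 660 and 465 against 877 to 1514). Of 10 endothelial and mural markers 6 rose and 1 fell (median 0.82), with overlapping sums of 3667 and 4250 against 3572 to 12904. The liver genes Serpina3k, Serpina1e, Fgb, Gc and Mup10 were at 0 in all 4 IRKO libraries, and no astrocyte, microglia or neuron marker was at 0 in all libraries of a group. The part of these cell contents in the changes below was not tested, and in such bulk samples fewer cells of a type and less RNA per cell cannot be told apart.

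Of the 10 genes, 8 fell in IRKO, 1 rose (Bcat1) and 1 did not pass limma's test (Auh). Among all tested genes 55.6% passed at the same threshold of adjusted p under 0.05, with 29% lower and 26.6% higher. The median log2 change of the 10 was −1.85, where that of all tested genes was 0.02. Their summed level was 19081 and 18344 normalized counts in control replicates 1 and 2, and 5770, 5405, 5434 and 5645 in IRKO replicates 1 to 4. As a share of each library's total this was 0.1005% and 0.0997% in the controls and 0.0376% to 0.0418% in IRKO. In 9 genes every IRKO library lay below both controls and in Bcat1 every one lay above, a separation of the groups that 67.6% of all tested genes showed in either direction (34.8% with IRKO below and 32.8% with IRKO above). Each gene had at least 107 reads in every library.

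**Figure D1:**
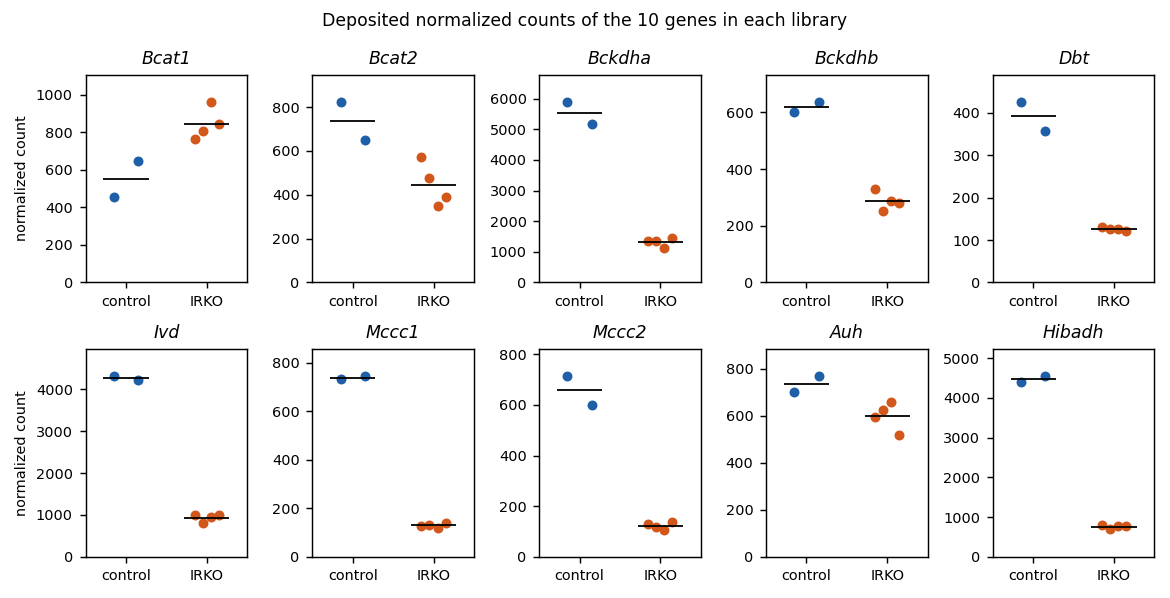
Deposited normalized counts (vertical axes, from 0, each gene on its own scale) of the 10 genes in the 2 control (blue) and 4 IRKO (orange) libraries, with the group mean as a black line. In 9 panels the IRKO points lie below both controls, and in the panel of Bcat1 they lie above, between 764 and 964 against 453 and 646.

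The 2 transaminases went in opposite directions. Bcat1, the cytosolic form (chromosome 6, 144993835 to 145076157 in GRCm38.p6), had 453 and 646 normalized counts in control replicates 1 and 2 and 764, 807, 964 and 844 in IRKO replicates 1 to 4. The lowest IRKO library lay above the higher control, and the controls themselves differed 1.42-fold. The group means were 550 ± 136 (SD, n = 2) and 845 ± 85.9 (SD, n = 4), a 1.54-fold rise with a log2 change of 0.64 ± 0.161 (SE, limma adjusted p = 0.00855). Without control replicate 1 the change was 0.38 and did not pass (limma adjusted p = 0.103, range over all alternatives 0.000711 to 0.103), and without control replicate 2 it was 0.89. The rise also depended on the scaling. It was 1.05 with equal library totals and turned to −0.88 when libraries were scaled to an equal mean of the microglia markers, a scaling in which the median of all genes was −1.49.

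Bcat2, the mitochondrial transaminase (chromosome 7, 45568967 to 45589710), had 824 and 648 normalized counts in the controls and 571, 478, 349 and 389 in IRKO replicates 1 to 4. The IRKO libraries spread 1.64-fold, the widest among the 10 genes, and IRKO replicate 1 lay close below control replicate 2. The mean fell from 736 ± 125 (SD, n = 2) to 447 ± 98.8 (SD, n = 4), with a log2 change of −0.74 ± 0.202 (SE, limma adjusted p = 0.0126). The call was lost without control replicate 1 (−0.56, limma adjusted p = 0.110) and with equal library totals (−0.32, limma adjusted p = 0.165), in a range over all alternatives of 5.64e-09 to 0.165.

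The ratio of Bcat1 to Bcat2 within a library does not depend on how libraries are scaled. Its log2 value was −0.86 and 0.00 in control replicates 1 and 2 and 0.42, 0.75, 1.46 and 1.12 in IRKO replicates 1 to 4, so every IRKO library had more Bcat1 relative to Bcat2 than either control. The ratio was 2.59-fold higher in IRKO on average (log2 difference 1.37). By a two-sided exact permutation test over samples p was 0.0667, which is the smallest p that 15 arrangements of 2 and 4 samples allow (0.1 after adjustment over 9 ratios). The difference was 0.94 to 1.80 with each library left out in turn. Lengths are not removed from such a ratio, so only its change between groups is read, not its level.

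Profiles close to those of the transaminases were sought among the tested genes, with predicted genes (Gm, Rik and LOC symbols) left out. Closeness was the Euclidean distance between log2 values centred on each gene's mean over the 6 libraries. Nearest to Bcat1 were Ppp1r13b (distance 0.102, log2 change 0.68), Eef1a2, a translation elongation factor of neurons and muscle (0.121, 0.70), and Tmem130 (0.131, 0.65). Eef1a2 rose from 4450 and 6077 normalized counts in the controls to 7312, 8372, 9851 and 8424 in IRKO. Its lower control and highest IRKO library were in the same places as for Bcat1, which follows from choosing it by closeness. Nearest to Bcat2 were Nudt12 (0.154, −0.78), Cep44 (0.204, −0.76) and Tpd52l2 (0.218, −0.68).

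The keto acids made by the transaminases are oxidised by the branched-chain keto acid dehydrogenase complex, whose E1 component is built from Bckdha and Bckdhb and whose E2 core is Dbt. All 3 genes fell, to different extents. Bckdha (chromosome 7, 25629852 to 25658782) had 5904 and 5163 normalized counts in the controls and 1341, 1369, 1119 and 1441 in IRKO. Its lowest control lay far above its highest IRKO library, and the mean fell 4.20-fold (log2 change −2.07 ± 0.131, SE, limma adjusted p = 2.56e-06). Bckdhb, which encodes the other E1 chain (chromosome 9, 83925111 to 84124240), had 601 and 638 in the controls and 329, 252, 288 and 280 in IRKO. It fell 2.16-fold (−1.11 ± 0.139, limma adjusted p = 0.000177), and stood at −0.69 on the log2 scale with equal library totals. Dbt (chromosome 3, 116513070 to 116549981) had 426 and 357 in the controls and 131, 127, 126 and 121 in IRKO. The 4 IRKO values of Dbt lay within 1.08-fold of each other, and the fall was 3.10-fold (−1.62 ± 0.148, limma adjusted p = 2.64e-05). Dld, the E3 subunit that this complex shares with other dehydrogenases, had 1160 and 1155 in the controls and 736, 634, 612 and 518 in IRKO and fell by 0.90 ± 0.144 (limma adjusted p = 0.000741).

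The subunits of the complex therefore did not move in proportion. The log2 ratio of Bckdha to Bckdhb was 3.29 and 3.01 in the controls and 2.02, 2.44, 1.95 and 2.36 in IRKO, an average difference of −0.96, with no overlap of the groups. Dbt relative to Bckdha was higher in every IRKO library, by 0.45 on average, and relative to Bckdhb lower in every one, with an average difference of −0.51. Each of these 3 ratios gave the smallest exact permutation p the design allows, 0.0667 (0.1 adjusted over 9 ratios), and kept its sign with each library left out in turn. The last ratio is fixed by the others, so the 3 are not separate results.

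The complex is switched off by the kinase Bckdk and switched on by the phosphatase Ppm1k. Bckdk had 746 and 719 normalized counts in the controls and 617, 547, 585 and 548 in IRKO, a log2 change of −0.35 ± 0.112 (SE, limma adjusted p = 0.0240). That call was lost under several alternatives, among them leaving out either control (limma adjusted p = 0.125 without replicate 1 and 0.0799 without replicate 2) or IRKO replicate 2 (0.0612), in a range over all alternatives of 1.06e-07 to 0.622. Ppm1k had 797 and 858 in the controls and 744, 839, 658 and 575 in IRKO. These groups overlapped, and the change of −0.25 ± 0.155 did not pass (limma adjusted p = 0.202). The log2 ratio of kinase to phosphatase differed between the groups by −0.11, less than the SD of 0.24 among the IRKO libraries (exact permutation p = 0.7333). Klf15, a transcription factor known to induce genes of this pathway, had 2847 and 2195 in the controls and 399, 402, 425 and 476 in IRKO, a 5.92-fold fall (−2.56 ± 0.139, limma adjusted p = 1.13e-06).

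**Figure D2:**
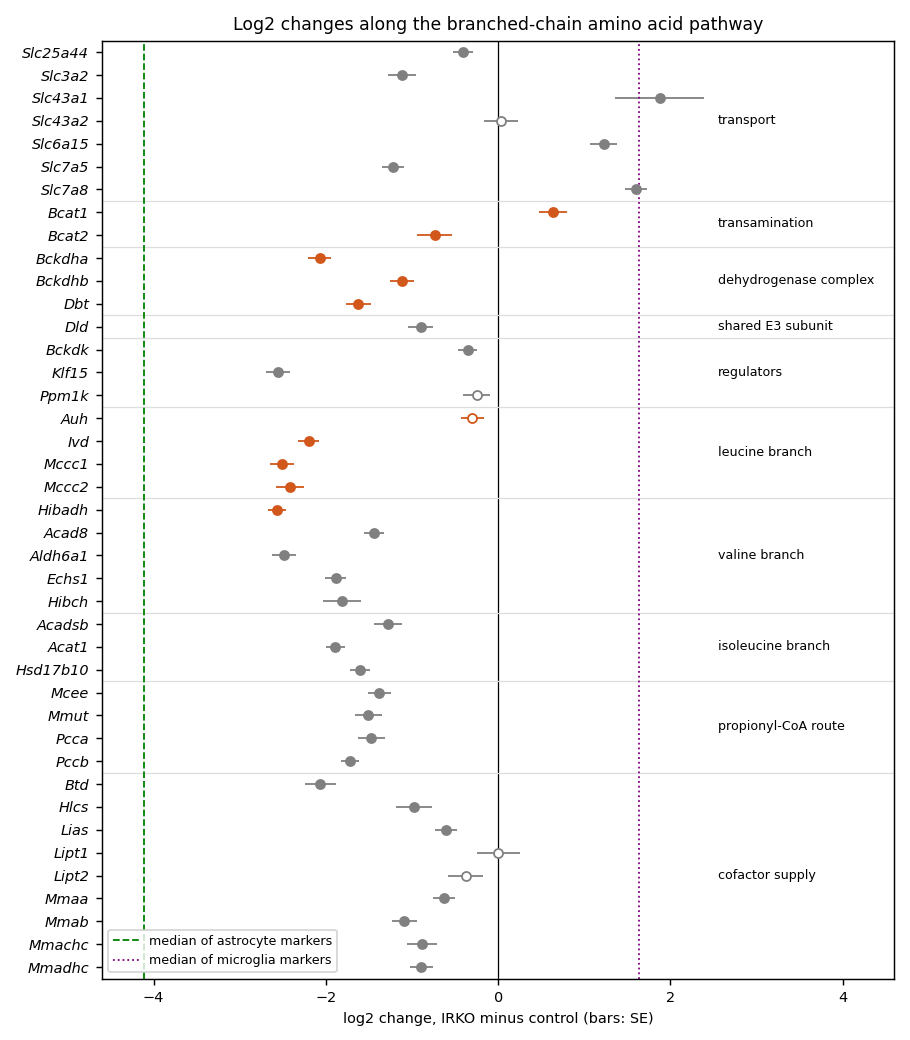
Log2 changes (IRKO minus control, horizontal axis, bars SE) of the 10 genes (orange) and 31 other genes of the pathway (grey) in the order of their steps, open where limma's adjusted p was not under 0.05. Falls run through the dehydrogenase complex and all branches, and the dashed and dotted lines are the astrocyte (−4.11) and microglia (1.64) marker medians.

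In the leucine branch, Ivd, isovaleryl-CoA dehydrogenase (chromosome 2, 118861959 to 118882909), had 4320 and 4221 normalized counts in the controls and 993, 796, 942 and 1004 in IRKO. The controls agreed within 1.02-fold, and the fall was 4.57-fold (−2.20 ± 0.123, SE, limma adjusted p = 1.31e-06). The next enzyme, methylcrotonyl-CoA carboxylase, has a biotin-bearing subunit, Mccc1 (chromosome 3, 35956292 to 36000694), and a partner subunit, Mccc2 (chromosome 13, 99948532 to 100015639). Mccc1 had 731 and 746 in the controls and 129, 131, 117 and 140 in IRKO, a 5.72-fold fall (−2.51 ± 0.139, limma adjusted p = 1.25e-06). Mccc2 had 714 and 601 in the controls and 131, 119, 104 and 137 in IRKO, a 5.36-fold fall (−2.41 ± 0.165, limma adjusted p = 4.16e-06). The log2 ratio of Mccc1 to Mccc2 differed between the groups by −0.09, within the SD of 0.20 between the controls, with overlapping groups (exact permutation p = 0.4).

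Auh, the hydratase that follows the carboxylase and that also binds AU-rich RNA (chromosome 13, 52835107 to 52929704), departed from the rest of the branch. It had 698 and 769 normalized counts in the controls and 594, 623, 658 and 517 in IRKO. All IRKO values lay below both controls, but the change of −0.30 ± 0.130 (SE) did not pass (limma adjusted p = 0.0768), and it stood at 0.12 with equal library totals. Relative to Mccc1 within a library, Auh was 4.63-fold higher in IRKO, with log2 ratios of −0.07 and 0.04 in the controls and 2.20, 2.24, 2.49 and 1.88 in IRKO (exact permutation p = 0.0667, 0.1 adjusted over 9 ratios). The first 3 genes of the branch thus lay between −2.51 and −2.20 on the log2 scale, and Auh stood at −0.30.

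In the valine branch all 5 genes fell. Hibadh, 3-hydroxyisobutyrate dehydrogenase (chromosome 6, 52546230 to 52640300), had 4408 and 4554 normalized counts in the controls and 788, 701, 767 and 772 in IRKO. It was the largest fall of the 10 genes, 5.92-fold (−2.57 ± 0.104, SE, limma adjusted p = 3.33e-07), and only 3.76% of all tested genes fell as far or further. The genes that act before it had smaller changes, of −1.45 ± 0.117 for Acad8, isobutyryl-CoA dehydrogenase, −1.89 ± 0.118 for Echs1, an enoyl-CoA hydratase, and −1.81 ± 0.221 for Hibch, the hydrolase that supplies the substrate of Hibadh. Aldh6a1, which follows Hibadh and yields propionyl-CoA, had 1812 and 1622 in the controls and 364, 276, 301 and 287 in IRKO and fell 5.59-fold (−2.49 ± 0.141, limma adjusted p = 1.37e-06). Echs1 overlaps Paox and Aldh6a1 overlaps Bbof1 in the annotation, and whether the counting used strand is not given in the sources used here, so their reads may be shared. The log2 ratio of Hibadh to Hibch was 4.17 and 4.11 in the controls and 3.26, 2.95, 3.60 and 3.73 in IRKO (exact permutation p = 0.1333, 0.1714 adjusted over 9 ratios). Ivd relative to Acad8, the acyl-CoA dehydrogenases of the leucine and valine branches, was 1.68-fold lower in IRKO, with log2 ratios of 2.22 and 2.11 in the controls and 1.57, 1.24, 1.44 and 1.40 in IRKO (exact permutation p = 0.0667, 0.1 adjusted over 9 ratios).

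**Figure D3:**
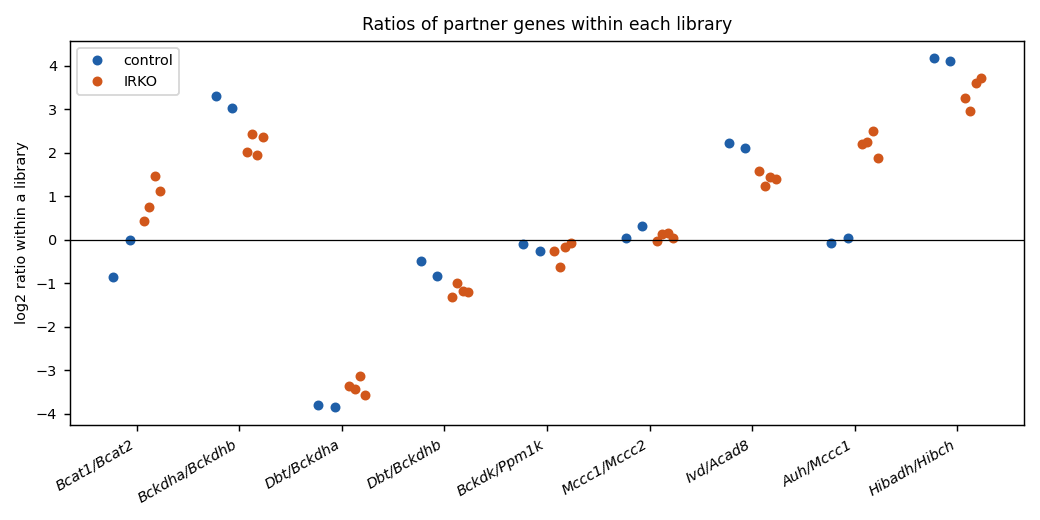
Log2 ratios of 9 pairs of partner genes within each library (vertical axis), for the 2 controls (blue) and 4 IRKO libraries (orange). Bcat1/Bcat2 and Auh/Mccc1 were higher in every IRKO library, by 1.37 and 2.21 on average, and Mccc1/Mccc2 and Bckdk/Ppm1k overlapped between the groups.

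No gene specific to isoleucine is among the 10, and the other genes of the pathway were followed from a list of 32, all of them tested. Of these, 25 fell, 3 rose and 4 did not pass, with a median of −1.03. Among all tested genes 29% fell and 26.6% rose. In 29 of the 32 the groups did not overlap, 26 with IRKO below and 3 with IRKO above, against 67.6%, 34.8% and 32.8% of all tested genes. In the isoleucine branch all 3 genes fell, with log2 changes of −1.28 ± 0.164 (SE) for Acadsb, an acyl-CoA dehydrogenase, −1.61 ± 0.116 for Hsd17b10 and −1.89 ± 0.110 for Acat1, a mitochondrial thiolase. The 4 genes that turn propionyl-CoA into succinyl-CoA also fell, with log2 changes of −1.47 ± 0.153 and −1.71 ± 0.104 for the carboxylase subunits Pcca and Pccb, −1.38 ± 0.134 for the epimerase Mcee and −1.51 ± 0.158 for the mutase Mmut. Pcca overlaps Gm46487, another gene of the table, in the annotation. Over the 3 branches and this route, the 10 genes included, 16 of 17 fell and Auh did not pass.

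Of 9 genes that supply biotin, cobalamin or lipoate to these enzymes, 7 fell, where 29% of all tested genes did. Btd, which recycles the biotin that Mccc1 and Pcca carry, had 1296 and 1190 normalized counts in the controls and 366, 264, 239 and 333 in IRKO, a 4.14-fold fall (log2 change −2.06 ± 0.179, SE, limma adjusted p = 1.98e-05). Hlcs, which attaches that biotin, fell by 0.98 ± 0.211. The cobalamin genes Mmaa, Mmab, Mmadhc and Mmachc fell by log2 changes of −1.09 to −0.63 and the lipoate synthase Lias by −0.61. Lipt1 and Lipt2, the lipoyl transferases, stood at 0.00 ± 0.249 and −0.38 ± 0.202 and did not pass. Mmachc overlaps Ccdc163 and Lipt1 overlaps Mitd1 in the annotation. With equal library totals Hlcs, Mmaa and Lias did not pass (limma adjusted p = 0.0554, 0.171 and 0.246).

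Of the 7 transport genes 3 fell, 3 rose and 1 did not pass the test. Among all tested genes 29% fell and 26.6% rose, so both directions were common. Slc7a5, the light chain of a large neutral amino acid exchanger, had 1099 and 1127 normalized counts in the controls and 430, 476, 465 and 546 in IRKO (log2 change −1.22 ± 0.126, SE, limma adjusted p = 5.71e-05). Slc3a2, its heavy chain, fell by 1.11 ± 0.160. Slc7a8, another light chain that pairs with Slc3a2, rose 3.05-fold, from 721 and 740 in the controls to 2303, 2276, 1894 and 2450 in IRKO (1.60 ± 0.125, limma adjusted p = 9.71e-06). Scaled to the microglia markers, Slc7a8 stood at 0.09 and no longer passed (limma adjusted p = 0.7). Slc6a15, a neutral amino acid transporter of neurons, had 151 and 194 in the controls and 366, 448, 434 and 362 in IRKO. It rose by 1.22 ± 0.161, but stood at −0.29 in that scaling. Slc43a1 rose from 3.37 and 4.84 to 11.9, 11.8, 26.2 and 25.3 normalized counts (1.88 ± 0.514, limma adjusted p = 0.0125), on 3 reads in control replicate 1, and the call was lost without that library (limma adjusted p = 0.0691, range over all alternatives 0.00531 to 0.596). Slc25a44, the mitochondrial carrier for branched-chain amino acids, fell by 0.41 ± 0.119 (limma adjusted p = 0.0166), a call lost without control replicate 1 (0.161), with equal library totals (a log2 change of 0.01, adjusted p = 0.949), under quantile normalization (0.252) and with edgeR without IRKO replicate 1 (edgeR adjusted p = 0.0527), in a range over all alternatives of 6.72e-08 to 0.949. Slc43a2 overlapped between the groups at 1004 and 1663 against 1173 to 1548.

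**Figure D4:**
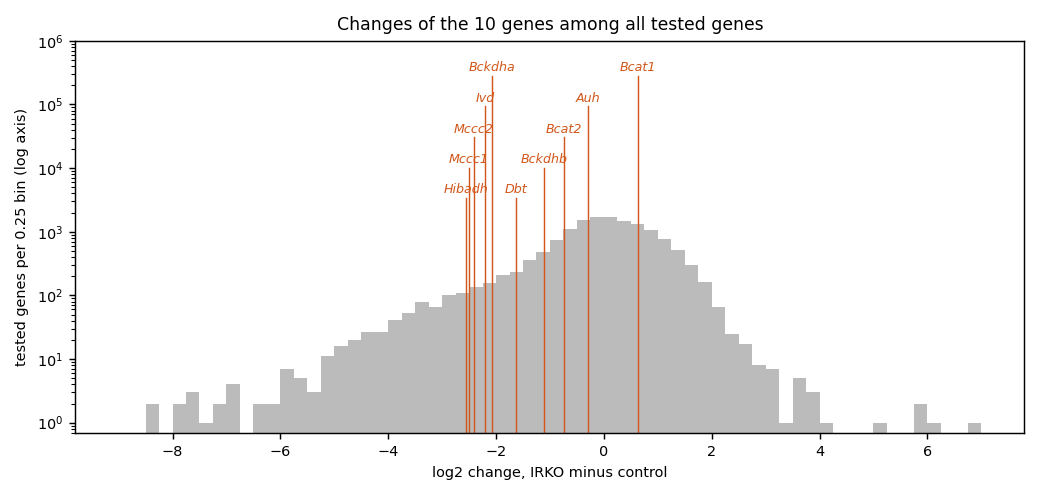
Number of tested genes (vertical log axis) by log2 change (IRKO minus control, bins of 0.25), with an orange line at each of the 10 genes. Hibadh (−2.57) and Mccc1 (−2.51) stand furthest to the left of the 10, and Bcat1 (0.64) is the only one to the right of 0.

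Beside other mitochondrial pathways the 10 genes took a middle place. In a list of 16 tricarboxylic acid cycle genes 15 fell, with a median log2 change of −1.36 (citrate synthase, Cs, −2.06 ± 0.119, SE). All 17 fatty acid oxidation genes fell, with a median of −2.33 (Eci1, an enoyl-CoA isomerase, −2.93 ± 0.132). Of all tested genes 29% fell, and the differences between lists were not tested. Of the 10 genes, only Hibadh (−2.57 ± 0.104, SE) lay past the least changed astrocyte marker (−2.53), and the other 9 lay above that marker. Mccc1 stood just above it, at −2.51 ± 0.139. Both genes lay closer to the marker than their SE, so these values do not set Hibadh apart. Bcat1, at 0.64, lay within the ranges of the neuron (0.096 to 1.74) and microglia (−1.19 to 2.10) markers, and below both medians (0.91 and 1.64). The microglia range reached below 0 through 1 marker, and the other 24 of 25 rose.

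Scaling each library by 1 factor keeps the order of the 10 changes by construction, but not their signs. Under quantile normalization Mccc1 and Mccc2 stood below Hibadh. All tested genes had a median of 0.43 with equal library totals, with 6808 higher and 2441 lower against 3911 and 4262 as deposited, and of −1.49 scaled to the microglia markers, with 43 higher and 12028 lower. With equal totals 7 of the 10 genes fell and Bcat1 rose (median −1.43). All 10 fell when libraries were scaled to the microglia markers (median −3.36). Bckdha, Bckdhb, Dbt, Ivd, Mccc1, Mccc2 and Hibadh fell in every scaling and with each library left out in turn.

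**Figure D5:**
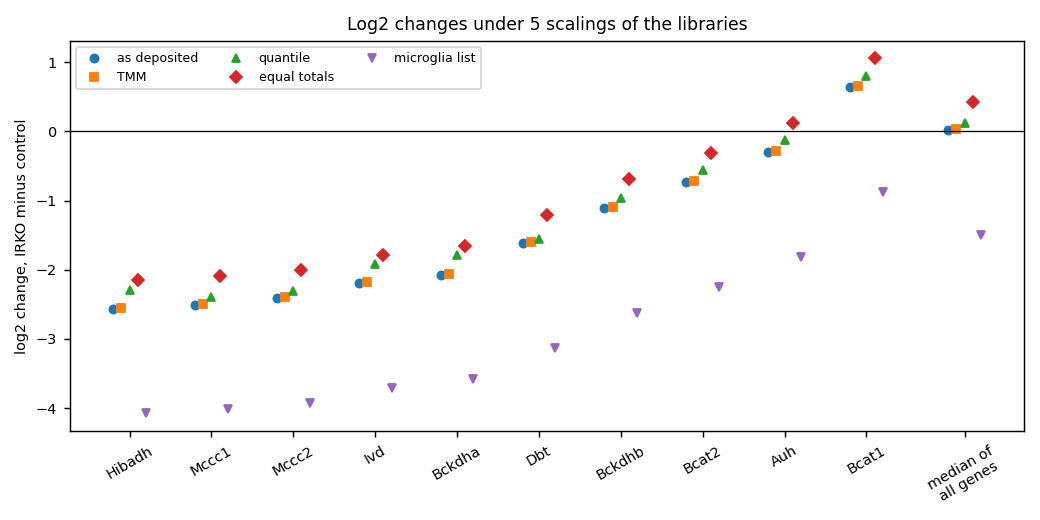
Log2 change (IRKO minus control, vertical axis) of each of the 10 genes and the median of all tested genes (far right) under 5 scalings of the libraries. The 7 genes from Hibadh to Bckdhb lie below 0 in all 5, Auh turns to 0.12 with equal totals and Bcat1 to −0.88 scaled to the microglia markers.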

How the data were processed

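The deposited values are a signal per gene in 6 RiboTag libraries. They were deposited under the name of normalized counts, and the values show read counts divided by 1 size factor per library. Reads were handled with Bowtie2 and the build GRCm38.p6, per the submitters' processing notes. Not given in the sources used here were the counter, the annotation, the strand setting and the tool for normalization. In each library 100% of values were whole multiples of the value of 1 read, within 0.05 reads, and the recovered totals are the depths given. A read of IRKO replicate 1 is worth 0.991, too near 1 to tell from rounding, so edgeR was also run without that library.

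Values were transformed as log2(value + 1), so fold changes of low genes are understated. Genes that reached 10 in 2 or more libraries were fitted with limma 3.58.1 (R 4.3.3, mean-variance trend, IRKO minus control), with two-sided p-values adjusted by Benjamini-Hochberg over all 14698 genes. Folds of genes between the groups are ratios of group means, and those of partner ratios come from the difference of mean log2 ratios. The fit was tested on simulated data. Partner ratios were tested by exact permutation. The alternatives changed the pseudocount (0.5 or 5), the filter (none, or 50), the scaling (TMM, quantile or microglia markers), the trend (none), the samples (each library left out) or the test (a replicate block, or, on recovered reads, edgeR 4.0.16 or DESeq2 1.42.0). Equal library totals were added after seeing the data.

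The members and lists were chosen with earlier results of these data known. All 10 members and any gene of the 32-gene list could be named, with the 3 nearest profiles of each transaminase and the gene of smallest p in a marker or compared list. Insr and the liver genes at 0 were added to this, and 1 gene of the 32 is counted but not reported here. Libraries of a group differed by more than sampling noise (chi-square per degree of freedom 16.8 to 36.9). Coordinates are RefSeq gene spans of GRCm38.p6. In RefSeq 7 of the 10 members overlap another gene, none of them a row of the table. Exon lengths were not used here, so levels are not compared between genes.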

Additional observations from a re-analysis of the deposited data

How the results depend on the processing

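The counts of the 10 genes that fell stayed at 7 to 10 under every alternative. The count that rose was 1, except 0 scaled to the microglia markers and 0 to 1 with each library left out in turn (0 without control replicate 1, and 0 at an unadjusted p under 0.05 in limma, against 1 with edgeR and 1 with DESeq2 on all 6 libraries). Their median log2 change was −1.67 under quantile normalization, −1.43 with equal library totals and −3.36 scaled to the microglia markers. For the 32 other pathway genes the median was −1.10 with the filter at 50 (fewer genes tested), −0.91 under quantile normalization, −0.62 with equal totals and −2.55 scaled to the microglia markers, where 0 of them rose by limma, also at an unadjusted p under 0.05. Apart from the change of scale these scalings apply, the cause was not tested.

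Signs turned scaled to the microglia markers for Bcat1 (−0.88), Lipt1 (−1.51), Slc43a2 (−1.48), Slc6a15 (−0.29), Ppp1r13b (−0.84), Eef1a2 (−0.81) and Tmem130 (−0.86), and with equal totals for Auh (0.12), Bckdk (0.065), Ppm1k (0.17), Lipt2 (0.037) and Slc25a44 (0.00995). Lipt1, near 0 throughout, turned to −0.11 under quantile normalization, −0.0037 with edgeR and −0.0082 with DESeq2, and ranged from −0.21 to 0.21 with libraries left out. Slc43a2 ranged from −0.33 to 0.40, the log2 ratio of Mccc1 to Mccc2 from −0.23 to 0.043 and that of Bckdk to Ppm1k from −0.18 to 0.0065.

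Control and IRKO libraries share the numbers 1 and 2. Deviations from the group means correlated at −0.082 for the libraries numbered 1 and 0.079 for those numbered 2. With 2 controls their deviations are exact opposites, so these correlations cannot decide whether the numbers pair the libraries. With the number as a replicate block 8 of the 10 genes fell and 1 rose, with a median of −1.81, Lipt1 stood at −0.028 and Slc43a2 at −0.11, and over all genes 3244 rose and 3691 fell.

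Depth limits Slc43a1 (at most 27 reads in a library) and Lipt1 (at most 50).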
